A study of Mus musculus with 18 samples.

Results

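The mRNA levels of 9 transcription factors that set or modify the macrophage lineage, namely Spi1, Cebpa, Cebpb, Cebpd, Maf, Runx1, Mef2c, Mef2a and Bhlhe40, were followed in Prep+/- and Prep-/- bone marrow-derived macrophages (BMDMs). The factors were taken by gene symbol and not by a cut on measured values, but with earlier results of these data known. Counts of called genes in this and the other lists therefore describe those lists only. All 9 were present among the 16314 genes of the count table and all 9 passed the filter on low counts, which left 12021 genes. The study asked how loss of PREP, a prolyl endopeptidase described as a partner of the protein PU.1 (encoded by Spi1), changes macrophages. Bone marrow of Prep-/- mice and heterozygous littermates on a C57BL6/J background was cultured for 7 days in M-CSF at 50 ng/ml. The cells were then left without stimulus (M0), or given 50 ng/ml LPS for 24 h (M1), or given 20 ng/ml IL-4 with 20 ng/ml IL-13 for 24 h (M2). Each of the 6 groups of genotype and state held 3 bulk RNA-seq libraries. The reference genotype is therefore a heterozygote, which lacks 1 Prep allele, and no wild-type library was compared. The libraries are described as biological replicates, but nothing ties them to single animals or cultures, so the p-values measure the spread between these libraries.

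Macrophage identity is built by a small set of DNA-binding proteins. PU.1 is an ETS factor that opens enhancers in myeloid cells and acts with C/EBP and RUNX proteins, which bind beside it. C/EBP alpha directs progenitors into the myeloid lineage, whereas C/EBP beta and C/EBP delta are raised by inflammatory signals and drive cytokine and acute phase genes. c-Maf restrains proliferation of mature macrophages and favours IL-10 expression. RUNX1 is needed for the first blood stem cells and helps to open the Spi1 locus. MEF2C and MEF2A are MADS-box factors, and MEF2C steers progenitors towards monocytes. BHLHE40 is a basic helix-loop-helix repressor that supports proliferation of macrophages under IL-4.

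Library totals ranged from 19068237 to 22598279 counts, with TMM factors of 0.818 to 1.20. In M0, Prep itself had 638, 739 and 900 normalized counts in the heterozygote and 42.2, 42.5 and 31.3 in the knockout, and its log2 fold change was -4.29, -3.74 and -3.77 in M0, M1 and M2. All 8 macrophage markers were present, and their sum was 12300 to 48400 CPM. In M0 this sum was higher in Prep-/- (30900 to 48400 CPM) than in Prep+/- libraries (19300 to 22600 CPM). In M1 it was lower in Prep-/- (30600 to 36600 CPM) than in Prep+/- libraries (44700 to 46000 CPM). In M2 it was again higher in Prep-/-, at 15000 to 21100 against 12300 to 14900 CPM. Abundant genes weigh most in such a sum, and single macrophage genes did not all move with it in M0. In Prep+/- and Prep-/- M0 the mean normalized counts were 362600 and 682900 for Lyz2 and 25570 and 67150 for Csf1r. They were 22110 and 20470 for Cd68, and 10490 and 2131 for Msr1. The granulocyte precursor markers summed to 36.0 to 84.0 CPM in Prep-/- M0 against 17.2 to 22.4 CPM in Prep+/- M0, and the progenitor markers to 2.94 to 3.98 against 12.1 to 17.8 CPM. The 3 of 7 T cell markers in the table summed to 8.17 to 29.7 CPM in Prep-/- M0 against 0.947 to 1.09 CPM in Prep+/- M0, and the 4 of 8 B cell markers to 8.66 to 11.5 against 3.01 to 4.83 CPM. The 6 dendritic cell markers summed to at most 2.64 CPM in any library. Over all libraries, stromal markers reached 21.8 CPM, mast cell and basophil markers 0.0802 CPM, and the erythroid and megakaryocyte list, which includes the macrophage-expressed Pf4, 133 to 1460 CPM. The part of these shifts in the results below was not tested. In bulk libraries, fewer cells of a type and less RNA per cell cannot be told apart. Replicate 3 of Prep-/- M0 and replicate 3 of Prep-/- M2 stood farthest from their group mates. Their root mean square log2 distances were 0.594 and 0.681, against 0.243 to 0.458 in the other libraries. Results of the lineage factors that rest on these libraries are therefore also given without them. Values of other genes are given only with all libraries.

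Unless another scale is named, values are counts scaled by TMM (normalized counts), and differences are log2 fold changes of edgeR's quasi-likelihood test. A factor is called higher or lower where the p-value, adjusted over the 12021 genes, was under 0.05 and the fold change was over 1.5. These 2 criteria are applied in every comparison. The positions of the genes come from GRCm39. Spi1 lies on chromosome 2 from 90912562 to 90946101 (plus strand), and Cebpb also on chromosome 2 from 167530835 to 167532338 (plus strand). Cebpa (34818718 to 34821353, plus strand) and Mef2a (66880911 to 67022606, minus strand) lie on chromosome 7, and Cebpd (15705150 to 15708895, plus strand) and Runx1 (92398354 to 92623037, minus strand) on chromosome 16. Maf lies on chromosome 8 from 116409632 to 116434579 (minus strand), Mef2c on chromosome 13 from 83652064 to 83815555 (plus strand) and Bhlhe40 on chromosome 6 from 108636626 to 108644502 (plus strand). Exons of the opposite strand overlap 7 of the 9 genes. The shared exonic bases are 1081 with Lysmd4 for Mef2a, 563 with Spidr for Cebpd and 442 with 0610040F04Rik for Bhlhe40. For Maf they are 440 with Gm15655 and 117 with Gm30712. They are 312 with Peds1 for Cebpb, 106 with Gm26626 for Runx1 and 51 with Gm45091 for Cebpa. The libraries were made with a stranded kit, but the strand setting of the counting is not given in the sources used here, so these genes carry that uncertainty. Spi1 and Mef2c share no exonic base with another gene.

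Placed among the other factors by CPM per kb of exon, Spi1 had the highest level in both genotypes in M0 and in M2. It reached 112 ± 7.18 (SD, n = 3) in Prep+/- M0 and 145 ± 20.6 in Prep-/- M0, which was 1.58 and 1.54 times the level of the next factor, Cebpb. In M2 it stood at 137 ± 8.02 in Prep+/- and 149 ± 11.7 in Prep-/-, and the next factor was Cebpa at 104 ± 14.2 and 139 ± 21.5. In Prep-/- M2 the difference between these 2 genes was smaller than their SDs. In M1 Spi1 was the second factor, with 214 ± 21.6 in Prep+/- and 193 ± 16.4 in Prep-/-, behind Cebpb at 378 ± 49.3 and 416 ± 34.7. The rank of Spi1 was the same in all 6 groups when the longest transcript of each gene was used as the length, but the size of its lead was not. With that length Spi1 in M0 was 2.33 (Prep+/-) and 2.28 (Prep-/-) times the level of Cebpb. In Prep-/- M2 it was 1.59 times the level of Cebpa, against 1.07 times by exon length. Bhlhe40 was the lowest factor in M0, at 1.61 ± 0.263 in Prep+/- and 0.774 ± 0.134 in Prep-/-, and the fourth in M2 at 20.9 ± 1.5 and 32.1 ± 8.25. Runx1 stayed between 3.03 ± 0.151 and 4.98 ± 1.01 in all groups.

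**Figure D1:**
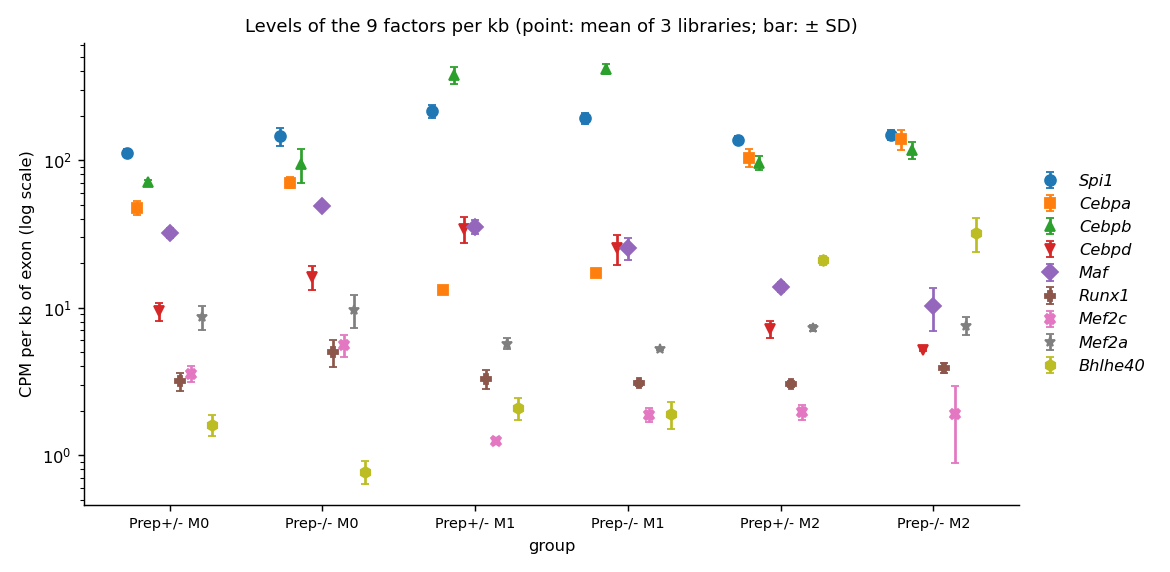
Level of each of the 9 factors in the 6 groups, as CPM per kb of exon on a log axis, with points for the mean of 3 libraries and bars for the SD. Spi1 lies near the top in every group, between 112 and 214, Cebpb passes it in M1, and Bhlhe40 moves from 0.774 in Prep-/- M0 to 32.1 in Prep-/- M2.

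Most knockout calls among the factors were made in M0. There, 5 of the 9 factors were called, against 32.6% of all genes tested: Cebpd, Maf, Runx1 and Mef2c rose and Bhlhe40 fell in Prep-/- BMDMs. Another 3, Spi1, Cebpa and Cebpb, passed the adjusted p but not the fold criterion, all with positive values, and Mef2a passed neither. The median log2 fold change of the 9 was 0.57 against 0.02 over all genes. The libraries of the genotypes did not overlap for 7 of the 9. Shares of all genes are given here only for calls by both criteria in edgeR, not for overlap of libraries or unadjusted p. Counts of factors by overlap or by unadjusted p therefore cannot be judged high or low against all genes. In M1, 0 of the 9 were called by edgeR or by DESeq2 (22.5% of all genes by edgeR), 4 had an unadjusted p under 0.05, and the median was -0.12. Cebpa was the 1 factor there with an adjusted p under 0.05. In M2, Bhlhe40 alone was called (16.2% of all genes), with a rise, and the median was 0.12. Averaged over the states, 0 of the 9 were called by either tool (21.8% of all genes by edgeR), and 4 had an unadjusted p under 0.05. These were Cebpa, Cebpb, Runx1 and Mef2c, with log2 fold changes of 0.46, 0.28, 0.30 and 0.39 and adjusted p-values under 0.05. The M0 calls lie close to the fold criterion except that of Bhlhe40: when the test was made against the 1.5-fold change itself, Bhlhe40 was the only one left in M0. Without replicate 3 of Prep-/- M0, the call of Maf was the one lost.

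**Figure D2:**
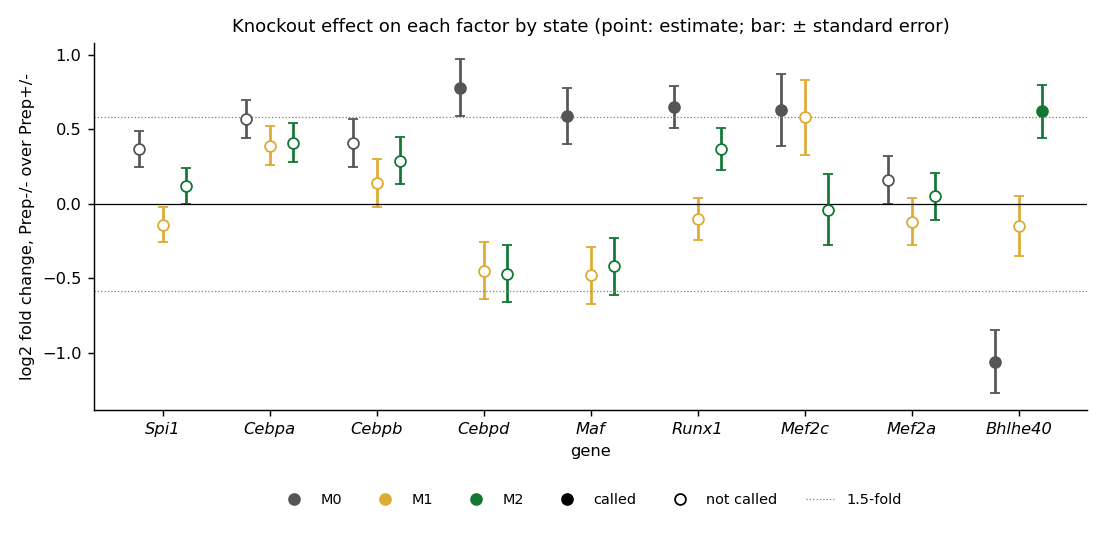
Log2 fold change of Prep-/- over Prep+/- BMDMs for each factor in M0, M1 and M2, with bars for the standard error, filled points for called values and dotted lines at 1.5-fold. Cebpd and Maf lie above 0 in M0 (0.78 and 0.59) and below 0 in M1 and M2, and Bhlhe40 moves from -1.06 in M0 to 0.62 in M2.

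The stimuli moved more of the factors than the knockout did within M1 or M2. IL-4 with IL-13 did not move more of them than the 5 of the 9 called for the knockout in M0. Against M0, LPS changed 6 of the 9 in Prep+/- BMDMs (37.7% of all genes), with Spi1, Cebpb and Cebpd higher and Cebpa, Mef2c and Mef2a lower. It changed 8 of the 9 in Prep-/- BMDMs (42.0% of all genes), with Cebpb, Cebpd and Bhlhe40 higher and Cebpa, Maf, Runx1, Mef2c and Mef2a lower. IL-4 with IL-13 changed 4 of the 9 in Prep+/- BMDMs (12.9% of all genes), with Cebpa and Bhlhe40 higher and Maf and Mef2c lower. In Prep-/- BMDMs it changed 5 of the 9 (30.2% of all genes), the same 4 genes in the same directions and Cebpd, which fell. Between M2 and M1, 7 of the 9 differed in Prep+/- (37.3% of all genes) and 5 of the 9 in Prep-/- BMDMs (38.5% of all genes). In both genotypes Cebpa and Bhlhe40 were higher, and Cebpb, Cebpd and Maf lower, in M2 than in M1. These comparisons share libraries: the M0 libraries of a genotype enter both its stimulus comparisons and the M0 knockout comparison.

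**Figure D3:**
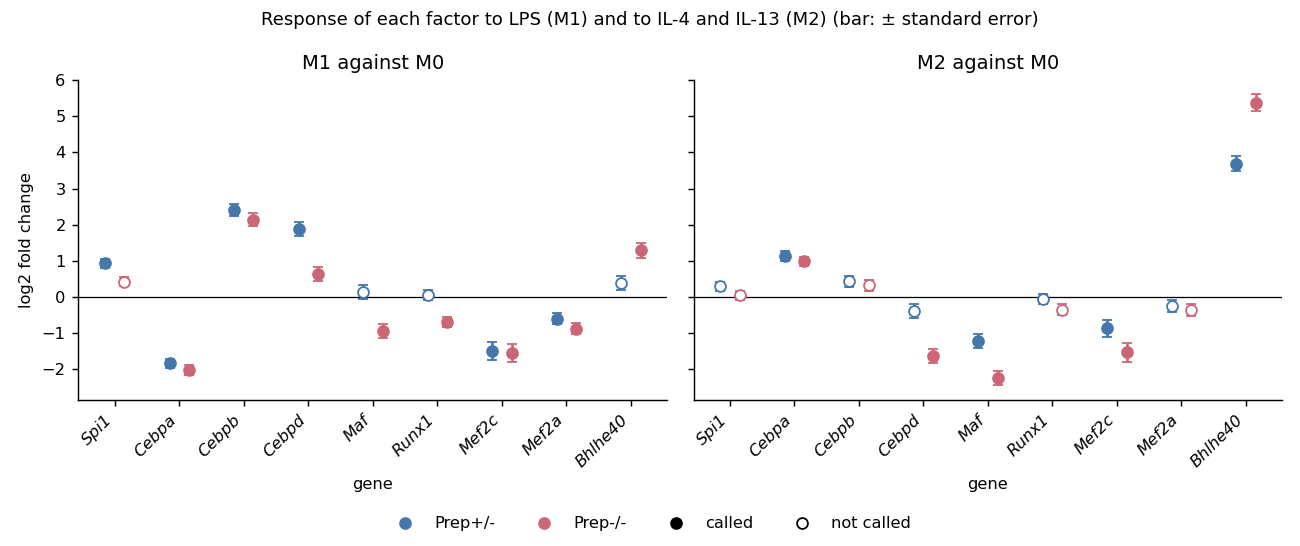
Log2 fold change of M1 against M0 (left) and of M2 against M0 (right) for each factor in Prep+/- and Prep-/- BMDMs, with bars for the standard error and filled points for called values. Cebpa and Cebpb move apart in M1 in both genotypes, Cebpd and Maf lie lower in Prep-/- than in Prep+/- in both panels, and Bhlhe40 reaches 3.69 and 5.38 in M2.

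Whether a state altered the knockout effect was tested as an interaction. Between M1 and M0 it was called for 4 of the 9 factors (21.1% of all genes), with Cebpd, Maf and Runx1 negative and Bhlhe40 positive. Between M2 and M0 it was called for 3 of the 9 (8.66% of all genes), with Cebpd and Maf negative and Bhlhe40 positive. For Spi1 the M1 interaction was -0.51 ± 0.17 (standard error, adjusted p = 0.0356), under the fold criterion, and the M2 interaction was -0.25 ± 0.17 (adjusted p = 0.384). The former met that criterion without Prep+/- M1 replicate 1 (-0.61), Prep-/- M0 replicate 2 (-0.63) or Prep-/- M1 replicate 1 (-0.59). Cebpa, Cebpb and Mef2a had interactions between -0.29 and -0.11 in both tests, none with an adjusted p under 0.05.

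**Figure D4:**
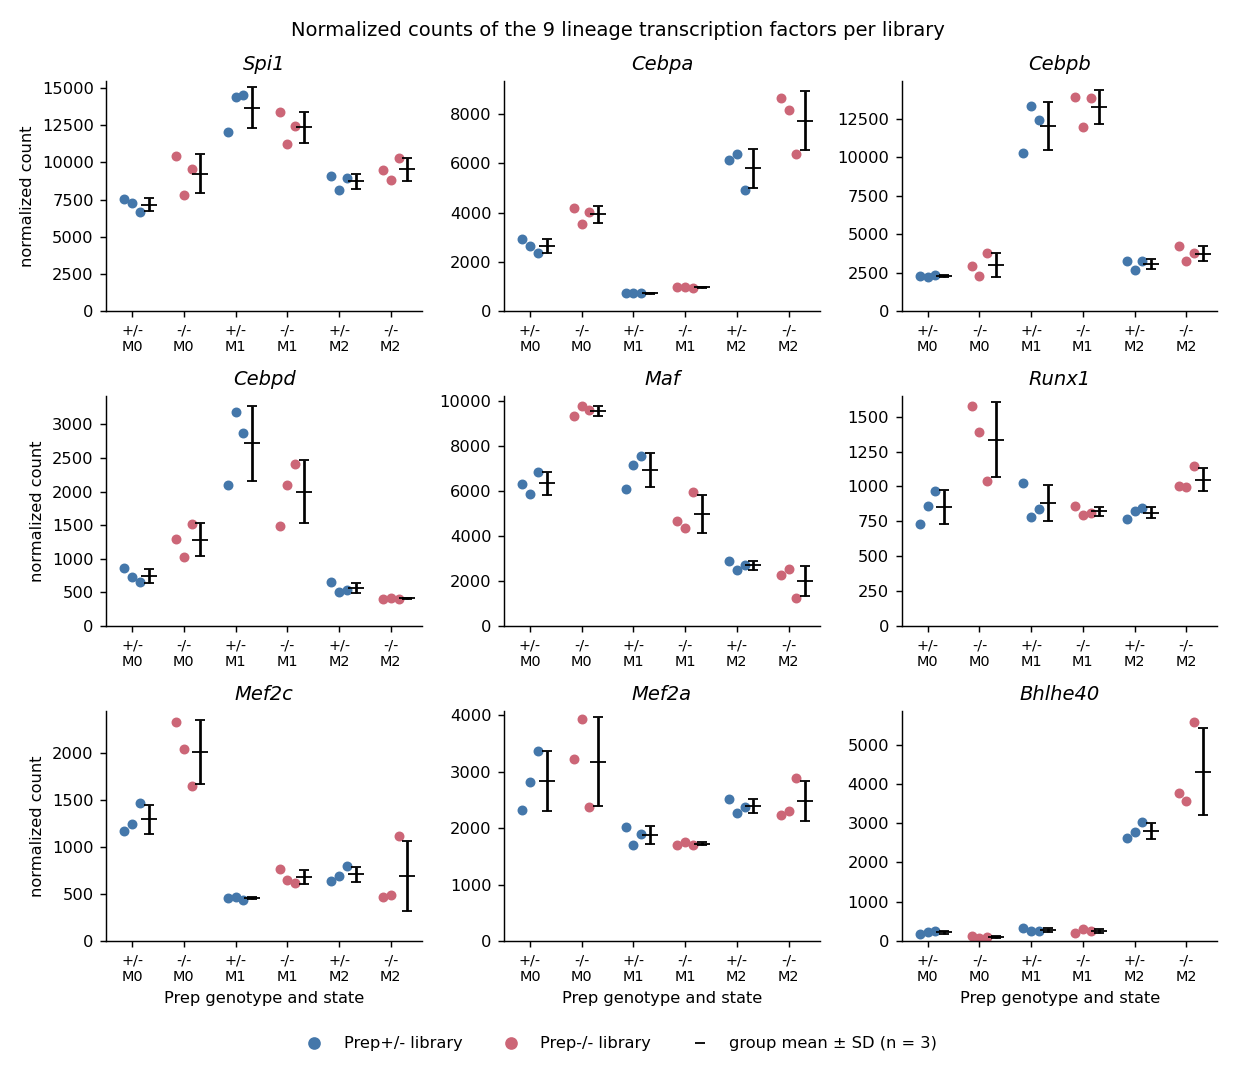
Normalized counts of the 9 factors in each of the 18 libraries, in 9 panels with linear axes from 0, and the mean ± SD of each group of 3. The panels show Cebpa lowest and Cebpb highest in M1, the single high Mef2c value of 1117 and the single low Maf value of 1266 in Prep-/- M2, and the separation of the M2 groups for Bhlhe40.

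Spi1, which encodes PU.1, was expressed in all libraries within a range of 1.91-fold between group means. Unstimulated Prep+/- libraries held 7542, 7288 and 6651 normalized counts (replicates in order), and unstimulated Prep-/- libraries 10392, 7804 and 9548. LPS-treated Prep+/- libraries held 12065, 14410 and 14503, and their Prep-/- counterparts 13349, 11256 and 12464. Under IL-4 and IL-13 the heterozygous cells held 9083, 8147 and 8978 and the knockout cells 9488, 8787 and 10282. The genotypes thus did not overlap in M0, where every Prep-/- library was the higher, and overlapped in M1 and M2. The knockout log2 fold change was 0.37 ± 0.12 in M0 (adjusted p = 0.0175), -0.14 ± 0.12 in M1 (adjusted p = 0.356) and 0.12 ± 0.12 in M2 (adjusted p = 0.485), so none was called. From highest to lowest mean the groups were Prep+/- M1, Prep-/- M1, Prep-/- M2, Prep-/- M0, Prep+/- M2 and Prep+/- M0. Libraries overlapped between the M1 groups, between Prep-/- M2 and Prep-/- M0, and between Prep-/- M0 and Prep+/- M2. LPS raised Spi1 in Prep+/- BMDMs by a log2 fold change of 0.93 ± 0.12 (adjusted p = 6.28e-06). In Prep-/- BMDMs the value was 0.42 ± 0.12 (adjusted p = 0.00678), a 1.34-fold difference that did not meet the fold criterion. With IL-4 and IL-13 the values were 0.29 ± 0.12 and 0.04 ± 0.12 in the 2 genotypes, and Prep+/- M2 lay below Prep+/- M1 by a log2 fold change of -0.64 ± 0.12 (adjusted p = 0.00025).

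The pattern of Spi1 over the 18 libraries was most like that of Cd52, which encodes a surface glycoprotein of leukocytes (Pearson r of log2 CPM 0.969), of Ube2f, a NEDD8-conjugating enzyme (0.965), and of Psme1, a proteasome activator subunit (0.958), among 9600 genes with a mean of at least 5 CPM. Among the factors it was most like Cebpb (r = 0.924) and most unlike Mef2a (r = -0.738). The libraries fall into 6 groups, so these values mostly describe group levels. Irf8, the interferon regulatory factor with which PU.1 binds composite sites, was read beside Spi1. It had 2238, 1903 and 1898 normalized counts in heterozygous M0 libraries against 5523, 4931 and 4008 in the knockout, and it rose in Prep-/- BMDMs in M0 (log2 fold change 1.26 ± 0.15, adjusted p = 9.96e-06) and in M2 (0.84 ± 0.15, adjusted p = 0.000761). In M1 its knockout log2 fold change was 0.07 ± 0.15.

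Of the ETS relatives of Spi1, 14 of 16 were tested, and in M0 1 was higher and 3 were lower in Prep-/- BMDMs, a share of 28.6% near the 32.6% of all genes. Spic, a close relative that serves red pulp macrophages, rose in M0 with 64.6, 56.8 and 62.8 normalized counts in Prep+/- and 233, 191 and 174 in Prep-/- libraries (log2 fold change 1.70 ± 0.27, adjusted p = 0.000109). Its log2 fold change was -0.02 ± 0.25 in M1 and 0.51 ± 0.28 in M2. Etv5 had the largest fall in M0 (-3.50 ± 0.56), Etv3 the largest rise in M1 (2.08 ± 0.26) and Ets2 the largest fall in M1 (-1.45 ± 0.40), while Ets1 was the 1 ETS gene called in M2 (-0.81 ± 0.18). Spib, the other close relative, had at most 27.5 normalized counts, in a Prep-/- M2 library. The median log2 fold change of the ETS list was 0.02, 0.05 and 0.13 in M0, M1 and M2, against 0.02, 0.04 and 0.03 over all genes.

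The 15 myeloid genes that textbooks place under PU.1 were read as a group beside Spi1. In M0, 8 were higher and 1 was lower in Prep-/- BMDMs (60.0% against 32.6% of all genes), with a median log2 fold change of 0.65 against 0.02. Those higher were Csf3r and Csf1r (the G-CSF and M-CSF receptors), Cybb (an NADPH oxidase subunit), Fcgr1 and Fcgr3 (Fc receptors), Il1b, Lyz2 and Slc11a1, and the lower gene was Msr1, a scavenger receptor. Csf3r had a log2 fold change of 2.24 ± 0.36, Csf1r of 1.39 ± 0.20 and Msr1 of -2.30 ± 0.19. Csf1r reached 67150 ± 22200 normalized counts in Prep-/- M0 against 25570 ± 1820 in Prep+/- M0 (SD, n = 3). In M1, 2 of the 15 were higher and 1 was lower (20.0%, near the 22.5% of all genes), with a median of -0.05, and Il1b was the lower gene (-2.26 ± 0.37). In M2, 5 were higher and 1 was lower (40.0% against 16.2% of all genes), with a median of 0.34. Several of these genes are also macrophage markers, whose sum moved with genotype in each state, as given above.

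The 3 C/EBP factors separated by stimulus. To show the genes that LPS moved furthest apart, the bases before the RefSeq start of Cebpb and Cebpa are printed. Matches of the GC box and of the core of the CREB element are in capitals. They come from the RefSeq promoter table (GRCm38.p6), and their positions were found by matching the sequence to GRCm39. The Cebpb sequence is chr2:167530585-167530834 and the Cebpa sequence is chr7:34818468-34818717, both on the plus strand.
Cebpb: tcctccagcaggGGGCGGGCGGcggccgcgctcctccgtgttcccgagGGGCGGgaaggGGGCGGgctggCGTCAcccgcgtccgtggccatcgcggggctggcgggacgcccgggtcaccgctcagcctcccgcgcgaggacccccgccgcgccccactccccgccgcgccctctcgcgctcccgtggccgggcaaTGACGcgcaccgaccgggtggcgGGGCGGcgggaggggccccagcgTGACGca
Cebpa: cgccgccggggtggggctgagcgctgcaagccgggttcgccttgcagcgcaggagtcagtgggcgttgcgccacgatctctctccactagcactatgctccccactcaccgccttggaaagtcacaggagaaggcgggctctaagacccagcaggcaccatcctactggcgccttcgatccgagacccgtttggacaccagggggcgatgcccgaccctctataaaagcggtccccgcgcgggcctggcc
Capitals in Cebpb mark the GC box GGGCGG, which is bound by SP factors, and the core TGACG of the element of CREB and ATF factors, on either strand. The GC box matched at 5 places, 2 of which share bases, and the core at 3. Within windows of 300 bases around each start, 35.7% of 32851 promoters held GGGCGG and 20.8% held TGACG. Neither of these matched in Cebpa, so that no base is in capitals there. A loose NF-kB pattern, held by 50.8% of promoters, matched at 3 places in each sequence and was left in lower case. Of these, 2 share bases on opposite strands in each sequence, and the other one in Cebpb spans a TGACG match. The other patterns searched on both strands matched in neither sequence. They were CCAAT (37.4% of promoters), AGGAAG (35.4%) and GAGGAAGT (3.2%) of ETS factors, the C/EBP palindrome TTGCNNAA (10.8%), the whole CREB element TGACGTCA (1.79%), a stricter NF-kB pattern (1.63%), the STAT pattern TTCNNNGAA (8.3%) and its form with a longer spacer (6.95%), the E-box CACGTG (7.15%) and the RUNX pattern TGTGGT (16.8%). The printed stretch had a G and C content of 81.6% in Cebpb and 66.4% in Cebpa. A match is a description of letters, and the binding of a factor was not measured here. Of the 9 factors, 5 had an entry in the promoter table (Cebpa, Cebpb, Runx1, Mef2c and Mef2a), and the others were Spi1, Cebpd, Maf and Bhlhe40.

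Cebpa, the gene of C/EBP alpha, was lowest in M1 and highest in M2. Without a stimulus Prep+/- cells had 2934, 2645 and 2356 normalized counts and Prep-/- cells 4198, 3544 and 4043. After LPS these were 727, 726 and 759 against 975, 973 and 953, and after IL-4 and IL-13 they were 6153, 6371 and 4900 against 8647, 8170 and 6373. Within each state every Prep-/- library was above every Prep+/- library, by as little as 6373 against 6371 in M2, and no 2 neighbouring groups overlapped. The knockout log2 fold change was 0.57 ± 0.13 in M0 (adjusted p = 0.00143), 0.39 ± 0.13 in M1 (adjusted p = 0.0261) and 0.41 ± 0.13 in M2 (adjusted p = 0.0239). None met the 1.5-fold criterion, although the M0 value, a 1.49-fold difference, lay at its edge and was called when Prep+/- M0 replicate 1 (0.66) or Prep-/- M0 replicate 2 (0.64) was left out. The knockout effect did not differ detectably between states (interaction -0.18 ± 0.18 in M1 and -0.16 ± 0.18 in M2). LPS lowered Cebpa in both genotypes, with log2 fold changes of -1.84 ± 0.13 in Prep+/- (adjusted p = 9.27e-09) and -2.02 ± 0.13 in Prep-/- (adjusted p = 3.66e-09). IL-4 with IL-13 raised it, by 1.13 ± 0.13 and 0.98 ± 0.13, and the 10.5-fold range between group means was the second widest of the 9. Its nearest pattern was that of Matk, a CSK-like tyrosine kinase (r = 0.986).

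Cebpb, the gene of C/EBP beta, was the factor raised most by LPS. Prep+/- BMDMs started from 2268, 2195 and 2326 normalized counts in M0 and Prep-/- BMDMs from 2930, 2273 and 3788. With LPS the heterozygous libraries held 10291, 13346 and 12445 and the knockout libraries 13924, 11971 and 13838. With IL-4 and IL-13 these were 3271, 2659 and 3238, and 4224, 3233 and 3767. M1 stood apart from all other groups, and the genotypes overlapped in every state. LPS gave log2 fold changes of 2.41 ± 0.17 in Prep+/- (adjusted p = 7.45e-09) and 2.14 ± 0.17 in Prep-/- (adjusted p = 2.46e-08), or 5.31-fold and 4.42-fold. The M2 values against M0 were 0.43 ± 0.16 and 0.32 ± 0.16 and were not called. The knockout log2 fold change was 0.41 ± 0.16 in M0 (adjusted p = 0.0460), 0.14 ± 0.16 in M1 and 0.29 ± 0.16 in M2. Batf, an AP-1 family factor, had the nearest pattern (r = 0.986).

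Cebpd, the gene of C/EBP delta, rose in Prep-/- BMDMs without a stimulus, and this difference changed with either stimulus by the interaction test. The unstimulated heterozygous libraries had 858, 729 and 654 normalized counts, all below the knockout libraries with 1295, 1029 and 1519. In M1 these were 2103, 3188 and 2874 against 1486, 2094 and 2407, and in M2 they were 657, 510 and 540 against 407, 420 and 409. The order of the genotypes was thus opposite in M2, again without overlap, while the M1 libraries overlapped. The knockout log2 fold change was 0.78 ± 0.19 in M0 (adjusted p = 0.00278), -0.45 ± 0.19 in M1 (adjusted p = 0.0685) and -0.47 ± 0.19 in M2 (adjusted p = 0.0873), and only the M0 value was called. The M1 value reached a call without Prep+/- M1 replicate 1 (-0.62, adjusted p = 0.0220) or Prep-/- M1 replicate 3 (-0.61, adjusted p = 0.0339). The interactions were -1.23 ± 0.26 for M1 (adjusted p = 0.00365) and -1.24 ± 0.27 for M2 (adjusted p = 0.00981). LPS raised Cebpd by 1.87 ± 0.19 in Prep+/- and by 0.64 ± 0.19 in Prep-/- BMDMs, the latter with overlapping libraries. Leaving out Prep-/- M0 replicate 2 gave 0.46 (adjusted p = 0.0664), leaving out Prep-/- M1 replicate 2 gave 0.56, and leaving out its replicate 3 gave 0.44 (adjusted p = 0.0812), none of which was called. IL-4 with IL-13 lowered it in Prep-/- (-1.64 ± 0.19) and gave -0.39 ± 0.19 in Prep+/- BMDMs, which was not called. Snx20, a sorting nexin of leukocytes, had the nearest pattern (r = 0.987).

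As shares of the summed level per kb of the 3 genes, Cebpa made up 37.0% ± 2.53 (SD, n = 3) in Prep+/- M0, 3.14% ± 0.421 in Prep+/- M1 and 50.2% ± 5.61 in Prep+/- M2. In Prep-/- BMDMs the shares were 39.4% ± 4.47, 3.80% ± 0.319 and 52.9% ± 4.88. Cebpb held 88.8% ± 0.225 in Prep+/- M1 and 90.7% ± 1.47 in Prep-/- M1, against 45.1% to 55.7% as group means in M0 and M2. Cebpd held 2.0% ± 0.222 in Prep-/- M2 and at most 8.92% ± 0.160, in Prep-/- M0. In both genotypes the shares of Cebpa and Cebpb in M1 did not overlap with those in M0 or M2. With 3 libraries against 3, an exact permutation test cannot go below 0.10, so no p is given for them.

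**Figure D5:**
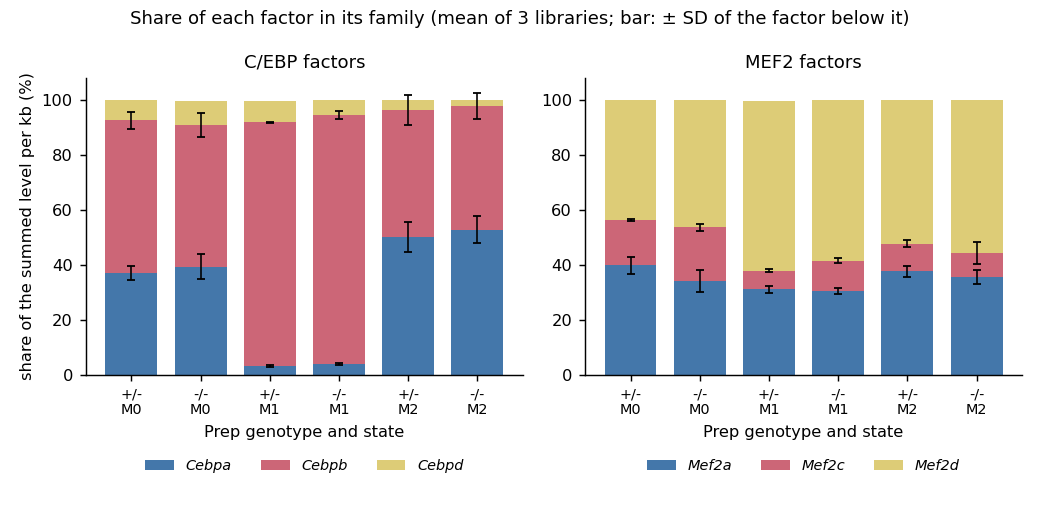
Share of each factor in the summed level per kb of its family, in percent, as stacked bars of group means for the C/EBP factors (left) and the MEF2 factors (right), with bars for the SD over 3 libraries. Cebpb fills 88.8% and 90.7% of the C/EBP bar in M1, and Mef2c is the smallest part of the MEF2 bar in every group, between 6.85% and 19.6%.

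Of the 4 other C/EBP genes, Ddit3, which encodes an inhibitory C/EBP of the stress response, was the 1 gene called in the 3 knockout comparisons, with a rise in M1 (0.75 ± 0.18). Averaged over the states, Cebpe was called lower in Prep-/- BMDMs (-0.81 ± 0.23, adjusted p = 0.00685). LPS raised Ddit3 in both genotypes (1.75 ± 0.19 and 2.16 ± 0.19). Of 6 genes that textbooks place under C/EBP beta or delta, all 6 rose with LPS in both genotypes (Csf3, Csf3r, Saa3, Lcn2, Il6 and Arg1), where 37.7% of all genes were called in Prep+/- and 42.0% in Prep-/-. Within M1, Csf3r was higher and Csf3, Arg1 and Il6 were lower in Prep-/- BMDMs (4 of 6, against 22.5% of all genes), with a median over the 6 of -0.88 against 0.04 over all genes. The largest of these differences was -6.56 ± 0.47 for Csf3, the gene of G-CSF.

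Maf, the gene of c-Maf, was highest in Prep-/- M0 and lowest in M2. Unstimulated Prep+/- libraries had 6326, 5858 and 6859 normalized counts and unstimulated Prep-/- libraries 9339, 9781 and 9617, without overlap. In M1 there were 6091, 7170 and 7542 in Prep+/- against 4666, 4363 and 5937 in Prep-/-, again without overlap but in the opposite order. In M2 the heterozygous libraries had 2902, 2495 and 2703, overlapping the knockout with 2271, 2519 and 1266, where replicate 3 stood apart. Maf rose in the M0 knockout comparison (0.59 ± 0.19, adjusted p = 0.0149), a 1.51-fold difference at the edge of the criterion. That call was lost without Prep+/- M0 replicate 2 (0.52, adjusted p = 0.0733), Prep-/- M0 replicate 2 (0.58) or Prep-/- M0 replicate 3 (0.58), and with a stricter filter on low counts (0.57). In M1 the value was -0.48 ± 0.19 (adjusted p = 0.0560), called without Prep-/- M1 replicate 3 (-0.63, adjusted p = 0.0335). In M2 it was -0.42 ± 0.19 (adjusted p = 0.113), called without Prep-/- M2 replicate 2 (-0.60, adjusted p = 0.0469) and only -0.16 without replicate 3. The interactions were -1.07 ± 0.26 for M1 (adjusted p = 0.00832) and -1.01 ± 0.26 for M2 (adjusted p = 0.0246), and the latter was -0.76 (adjusted p = 0.0172) without Prep-/- M2 replicate 3. The M2 interaction lost its call without Prep+/- M0 replicate 2 (-0.96, adjusted p = 0.0732) or Prep+/- M2 replicate 1 (-0.95, adjusted p = 0.0737).

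LPS lowered Maf in Prep-/- BMDMs (-0.94 ± 0.19, adjusted p = 0.000427), while the value in Prep+/- was 0.13 ± 0.19. IL-4 with IL-13 lowered it in both, with log2 fold changes of -1.23 ± 0.19 (adjusted p = 0.00017) and -2.25 ± 0.19 (adjusted p = 1.47e-07). Of the small MAF genes, which lack an activation domain, Mafk was higher (0.84 ± 0.18) and Maff lower (-0.88 ± 0.30) in the M1 knockout comparison, and Maff was higher in M2 (1.18 ± 0.32). The nearest pattern to Maf was that of Pdlim2, a PDZ and LIM domain protein (r = 0.978), and among the factors Bhlhe40 ran most against it (r = -0.952).

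Runx1 varied least, by 1.64-fold between group means, and its highest group was Prep-/- M0. The heterozygous M0 libraries had 729, 857 and 971 normalized counts, below 1574, 1389 and 1042 in the knockout. After LPS the counts were 1024, 779 and 840 against 861, 795 and 807, and after IL-4 and IL-13 they were 767, 827 and 844 against 1002, 999 and 1144. The genotypes did not overlap in M0 and M2 and overlapped in M1. Runx1 rose in the M0 knockout comparison (0.65 ± 0.14, adjusted p = 0.00151), although the value fell under the fold criterion without Prep+/- M0 replicate 1 (0.55) or Prep-/- M0 replicate 1 (0.51). The values in M1 and M2 were -0.10 ± 0.14 and 0.37 ± 0.14, and the M1 interaction was -0.75 ± 0.20 (adjusted p = 0.0140). LPS lowered Runx1 in Prep-/- BMDMs (-0.70 ± 0.14, adjusted p = 0.000557), a value of -0.57 without Prep-/- M0 replicate 1, and gave 0.05 ± 0.14 in Prep+/-. In the order of levels all 5 pairs of neighbouring groups overlapped. Its nearest pattern was that of Csf1r (r = 0.888), the lowest best match among the 9.

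Cbfb, the gene of the partner that stabilizes RUNX proteins on DNA, fell in the M0 knockout comparison, from 3130, 3370 and 3573 to 1821, 1947 and 1830 normalized counts (-0.85 ± 0.13, adjusted p = 5.25e-05). Runx3 also fell, from 47.3, 84.4 and 78.9 to 3.01, 7.97 and 2.93 (adjusted p = 1e-05), and no fold is given because the lower values are near 3 counts. In M1 Runx2 rose (2.03 ± 0.30) and Runx3 fell (-0.89 ± 0.33), and in M2 Cbfb had -0.44 ± 0.13 (adjusted p = 0.0168), under the fold criterion, while Runx3 had an adjusted p of 0.0773. Runx1 and its partner gene thus differed in opposite directions in M0, where the median of the 3 RUNX relatives was -0.85.

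Mef2c was highest in M0 and higher in Prep-/- than in Prep+/- there. Unstimulated cells had 1172, 1246 and 1469 normalized counts when heterozygous and 2329, 2044 and 1652 when Prep-/-. In M1 there were 458, 465 and 441 against 766, 653 and 621, and in M2 there were 640, 693 and 799 against 467, 488 and 1117. The genotypes did not overlap in M0 and M1, and in M2 replicate 3 of Prep-/- lay above all 3 Prep+/- libraries while the other 2 lay below them. The M0 difference was called (0.63 ± 0.24, adjusted p = 0.0394), but the adjusted p rose above 0.05 when any Prep+/- M0 library was dropped (0.57, 0.58 and 0.71) and without Prep-/- M0 replicate 1 (0.51, adjusted p = 0.135) or replicate 2 (0.62, adjusted p = 0.0686). The M1 value was 0.58 ± 0.25 (adjusted p = 0.0781). In M2 it was -0.04 ± 0.24 with all libraries and -0.56 (adjusted p = 0.00694) without Prep-/- M2 replicate 3, and the M2 interaction of -0.67 ± 0.34 (adjusted p = 0.228) was then -1.19 (adjusted p = 0.00158).

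LPS lowered Mef2c in both genotypes (-1.51 ± 0.25 and -1.56 ± 0.25, Prep+/- first). IL-4 with IL-13 lowered it, with values of -0.87 ± 0.24 in Prep+/- and -1.54 ± 0.25 in Prep-/- BMDMs, and the former call was lost without Prep+/- M0 replicate 3 (-0.77), Prep+/- M2 replicate 1 (-0.82) or Prep+/- M2 replicate 2 (-0.85). Between M2 and M1, Mef2c was higher in Prep+/- M2 (0.64 ± 0.25, adjusted p = 0.0392). That call did not hold when any of the 3 Prep+/- M1 libraries was dropped (0.65, 0.67 and 0.63), nor without replicate 2 (0.65) or 3 (0.56) of Prep+/- M2. The nearest pattern was that of Ccr2, a chemokine receptor of monocytes (r = 0.935).

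Mef2a, the more widely expressed relative, was the 1 factor with no detectable knockout difference in M0. Heterozygous and knockout M0 libraries mixed, with 2324, 2818 and 3373 against 3232, 3943 and 2371 normalized counts. They stood at 2023, 1700 and 1901 against 1710, 1759 and 1704 in M1, and at 2520, 2276 and 2371 against 2237, 2313 and 2882 in M2. The genotypes overlapped in all 3 states, and the knockout log2 fold changes were 0.16 ± 0.16, -0.12 ± 0.16 and 0.05 ± 0.16. LPS lowered Mef2a in both genotypes (-0.60 ± 0.16 in Prep+/- and -0.88 ± 0.16 in Prep-/-), although the Prep+/- value fell under the fold criterion with other size factors (-0.58), without Prep+/- M0 replicate 3 (-0.44) or without Prep+/- M1 replicate 2 (-0.57). Mef2d, the third MEF2 gene tested, had knockout values of 0.47 ± 0.10, -0.18 ± 0.10 and 0.21 ± 0.10, and its M1 interaction was called (-0.65 ± 0.14, adjusted p = 0.0032). Per kb, Mef2c made up 16.5% ± 0.313 of the 3 MEF2 genes in Prep+/- M0 and 19.6% ± 1.34 in Prep-/- M0. After LPS these shares were 6.85% ± 0.430 and 10.9% ± 0.948, and after IL-4 with IL-13 they were 10.1% ± 1.22 and 8.80% ± 4.08. Mef2a held 30.6% to 39.8% as group means. These shares use the exon length of each gene, and with the longest transcript as the length Mef2a held 44.4% to 52.3%. In Prep+/- M0 Mef2d held 43.7% by exon length, above Mef2a, and 28.0% by longest transcript, below it. The order of these 2 genes thus depends on the length used. Ddx3x, an RNA helicase, had the pattern nearest to Mef2a (r = 0.955).

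Bhlhe40 had the widest range, 41.5-fold between group means, and was the factor raised most by IL-4 with IL-13. In M0 it had 180, 218 and 251 normalized counts in Prep+/- and 116, 83.3 and 112 in Prep-/- libraries. In M1 these were 334, 244 and 265 against 207, 311 and 244, and in M2 they were 2621, 2780 and 3021 against 3772, 3574 and 5587. The Prep-/- libraries were thus all lower in M0, mixed with the Prep+/- libraries in M1 and all higher in M2. The knockout log2 fold change was -1.06 ± 0.21 in M0 (adjusted p = 0.000566), -0.15 ± 0.20 in M1 (adjusted p = 0.585) and 0.62 ± 0.18 in M2 (adjusted p = 0.0206), with the M0 fall and the M2 rise called. The M2 call was lost without Prep-/- M2 replicate 3 (0.40, adjusted p = 0.0727), Prep+/- M2 replicate 1 (0.57) or Prep+/- M2 replicate 2 (0.58). The interaction was 1.68 ± 0.28 for M2 (adjusted p = 0.00203), 1.46 without Prep-/- M2 replicate 3 (adjusted p = 0.00185), and 0.91 ± 0.29 for M1 (adjusted p = 0.0289). The M1 interaction lost its call when any 1 of 6 libraries was left out, with values of 0.73 to 0.92 and adjusted p-values of 0.0550 to 0.0825.

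IL-4 with IL-13 raised Bhlhe40 by a log2 fold change of 3.69 ± 0.21 in Prep+/- (adjusted p = 2.43e-09), or 12.9-fold, and by 5.38 ± 0.23 in Prep-/- BMDMs (adjusted p = 4.69e-11), or 41.5-fold. LPS raised it in Prep-/- (1.29 ± 0.21, adjusted p = 6.13e-05) and gave 0.38 ± 0.20 in Prep+/-. Bhlhe41, the closest relative, which represses the same class of E-box genes, had 1143, 1261 and 1186 normalized counts in heterozygous M0 libraries against 417, 472 and 500 in the knockout. It fell in the M0 knockout comparison (-1.37 ± 0.12, adjusted p = 5.57e-07), rose in M1 (0.79 ± 0.12, adjusted p = 0.000202) and had 0.21 ± 0.12 in M2. Its interactions were 2.16 ± 0.16 for M1 and 1.58 ± 0.16 for M2. IL-4 with IL-13 lowered Bhlhe41 in Prep+/- (-0.60 ± 0.11) and raised it in Prep-/- BMDMs (0.98 ± 0.12), while LPS gave -0.72 ± 0.12 and 1.44 ± 0.12. Hes1 and Hey1, more distant relatives, did not pass the filter on low counts. Tmem26, a transmembrane protein, had the pattern nearest to Bhlhe40 (r = 0.988).

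Among 26 other myeloid factors tested, 8 were higher and 4 were lower in Prep-/- M0, a share of 46.2% against the 32.6% of all genes, with a median log2 fold change of 0.32. The largest rise was that of Irf4 (1.75 ± 0.22), a factor of IL-4 macrophages, and the largest fall that of Egr1 (-3.77 ± 1.03), an immediate early gene. In M1, 5 were higher and 3 lower (30.8% against 22.5% of all genes), with Nfil3 (1.53 ± 0.18) and Myc (-2.56 ± 0.59) at the ends. In M2, 3 were higher and 1 lower (15.4%, near the 16.2% of all genes), with Irf8 (0.84 ± 0.15) and Id3 (-4.14 ± 0.41) at the ends. IL-4 with IL-13 raised 12 of the 26 in Prep+/- and 13 in Prep-/- BMDMs, and 53.8% and 73.1% were called in either direction against 12.9% and 30.2% of all genes. The largest rise was that of Irf4 in Prep+/- (4.66 ± 0.23) and of Egr2 in Prep-/- (4.99 ± 0.36). LPS lowered 11 and 10 of them, and 65.4% and 61.5% were called in either direction against 37.7% and 42.0% of all genes. Irf4 was among these in both genotypes, from means of 39.3 and 133 normalized counts to 0.760 and 2.5, under the floor of 3 counts, so no fold is given. Of 14 partners and cofactors of the factors, 1 was higher and 5 were lower in Prep-/- M0, a share of 42.9% against the 32.6% of all genes. The largest fall was that of Hdac9 (-2.49 ± 0.36), a class II deacetylase that binds MEF2 proteins, and Bach1 was the gene that rose (0.92 ± 0.18). In M1, 4 of the 14 were called (28.6% against 22.5% of all genes), and in M2 2 of the 14 (14.3% against 16.2%). In M1, Trib3 was higher (1.99 ± 0.32) and Trib1, a pseudokinase that promotes breakdown of C/EBP alpha, was lower (-1.22 ± 0.18), and in M2 Hdac9 was again lower (-1.57 ± 0.36).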

How the data were processed

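Bulk RNA-seq libraries of 18 BMDM samples were grouped by the genotype and treatment in the labels. The authors trimmed reads with Trimmomatic 0.36, aligned them to GRCm39 with HISAT2 2.2.1.0 (versions from the submitters' processing notes), assembled them with StringTie, and deposited whole-number counts per gene symbol without normalization. Everything after these counts was computed here. Depth was 19068237 to 22598279 counts per library, and replicates differed by more than sampling noise.

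The tests used edgeR 4.0.16 (limma 3.58.1, R 4.3.3): filterByExpr, TMM, a quasi-likelihood fit of all 18 libraries with 1 coefficient per group, and Benjamini-Hochberg adjustment over 12021 genes. Standard errors are the log2 fold change divided by the root of F. Normalized counts are scaled to the mean TMM library size. DESeq2 1.42.0, which the study used, was an alternative, with RLE size factors, other filters, glmTreat, the adjusted p alone, only the libraries compared, a replicate block, and leaving out each library. Leaving out replicate 3 of Prep-/- M0 and of Prep-/- M2 together was chosen after seeing the data. The tests were tested on simulated data.

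The 9 factors and the gene lists were chosen with earlier results of these data known. The lists were written from general knowledge. Named beside the 9 are Prep, Irf8, family relatives, the called gene with the largest rise and fall of a list (given for the comparisons described), and the genes with the highest Pearson r of log2 CPM over 18 libraries, 3 for Spi1 and 1 for each other. Genes of the lists of PU.1 and C/EBP targets were named as called. Positions and exon lengths come from GENCODE on GRCm39, while the release behind the deposited counts is not given in the sources used here. Transcripts were compared with blastn 2.17.0.

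Deviations from the group means were compared between libraries of equal replicate number. For the knockout within M2 their correlations were 0.249, 0.255 and 0.462, and for LPS within Prep-/- they were 0.201, 0.169 and 0.259, so a pairing was accepted there. It comes from these correlations alone, since the labels do not say what a number marks. A replicate block changed no call of the 9 factors in these 2 comparisons.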

Additional observations from a re-analysis of the deposited data

Results flagged for a closer look

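The knockout effect differed between states, by the interaction test of edgeR with Benjamini-Hochberg adjustment over 12021 genes, for 5 of the 9 factors, and these results may be looked at again. This count uses the adjusted p alone, in either test, and no share of all genes is given for it. By both criteria, 4 of the 9 were called for M1 (21.1% of all genes) and 3 of the 9 for M2 (8.66% of all genes). Between M1 and M0 the difference of the log2 fold changes was -1.23 for Cebpd (adjusted p = 0.00365), -1.07 for Maf (adjusted p = 0.00832), -0.75 for Runx1 (adjusted p = 0.0140), 0.91 for Bhlhe40 (adjusted p = 0.0289) and -0.51 for Spi1 (adjusted p = 0.0356), the last under the 1.5-fold criterion. Between M2 and M0 it was -1.24 for Cebpd (adjusted p = 0.00981), -1.01 for Maf (adjusted p = 0.0246) and 1.68 for Bhlhe40 (adjusted p = 0.00203). Every interaction uses the same M0 libraries, so the M1 and M2 values of a gene are not independent. In all 3 Prep-/- M0 libraries Cebpd was above, and Bhlhe40 below, all 3 Prep+/- M0 libraries, and in M2 the order was the opposite for both genes. The macrophage markers summed to 30900 to 48400 CPM in Prep-/- M0 and 19300 to 22600 CPM in Prep+/- M0. In M1 the sums were 30600 to 36600 CPM in Prep-/- and 44700 to 46000 CPM in Prep+/- libraries. In M2 they were 15000 to 21100 CPM in Prep-/- and 12300 to 14900 CPM in Prep+/- libraries. The part of these differences in the flagged results was not tested. Single macrophage genes did not all follow this sum, as given above.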

How the results depend on the processing

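Of the values of single factors recomputed under other settings, 1726 kept their direction and their side of the criteria, 61 lost a call, 28 gained one and 30 changed sign. Against a 1.5-fold change (glmTreat), 1 factor was called in the M0 knockout comparison, 0 in M2, 0 for the M1 interaction and 1 for the M2 interaction. With the adjusted p alone, 8 were called in M0, 1 in M1, 2 in M2, 4 for the average over states, and 8 for M2 against M1 in Prep-/-. DESeq2 called 5, 0 and 1 in the M0, M1 and M2 knockout comparisons. For LPS in Prep+/- BMDMs it called 5 where edgeR called 6, and in every other comparison both tools called equal numbers. No share of all genes is given for calls under any of these other settings. Such counts therefore describe the factors only, and whether they are high or low against all genes cannot be judged from them. With a replicate block and only the libraries compared, 3 were called in M0, where the numbers did not pair the libraries by their correlations. Leaving out 1 library gave 3 to 4 calls in M0, 0 to 2 in M1 and 0 to 2 in M2. The cause of these changes was not tested, beyond the smaller number of libraries or the stricter criterion itself.

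The log2 values that changed sign lay between -0.16 and 0.16 with all libraries. Mef2c for M2 against M1 in Prep-/- was -0.0030 with a stricter filter, -0.02 with the replicate block over all libraries and -0.09 with it over only those compared, and -0.48 to 0.25 when libraries were left out, with an adjusted p of 0.0102 for -0.48 (without Prep-/- M2 replicate 3). When libraries were left out, including the pair of distant Prep-/- libraries together, Mef2a ranged from -0.02 to 0.33 for the knockout in M0, from -0.06 to 0.11 in M2, from -0.03 to 0.08 averaged, and from -0.39 to 0.07 for the M2 interaction. Mef2c ranged from -0.56 to 0.17 for the knockout in M2 and from -0.17 to 0.07 for the M1 interaction. Runx1 ranged from -0.19 to 0.0050 for the knockout in M1, from -0.10 to 0.17 for LPS, from -0.19 to 0.03 for IL-4 with IL-13 and from -0.19 to 0.01 for M2 against M1, all but the first in Prep+/-. The M2 interaction was -0.26 to 0.01 for Cebpa and -0.28 to 0.11 for Cebpb. Cebpd averaged over states was -0.10 to 0.01, and Spi1 for IL-4 with IL-13 in Prep-/- was -0.09 to 0.13.

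The depth of each library leaves few counting limits for these factors, whose lowest normalized count was 83.3. With 3 libraries a group, the spread between libraries sets the precision. No wild-type library was compared, so the effect of 1 lost Prep allele is not measured. The counts measure mRNA and not protein or binding.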
